A study of Mus musculus with 18 samples.

Results

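The 10 genes described here encode the cytokine LIF (Lif), its receptor chains (Lifr and Il6st), the kinases and transcription factor behind the receptor (Jak1, Jak2 and Stat3) and 4 genes known to respond to STAT3 (Socs3, Pim1, Pim3 and Gbx2). They were chosen by name, as the rows of the counts table whose mouse Ensembl identifier carries one of these symbols. The choice was made with earlier results of these data known. All 10 were among the 46078 genes of the table, and all 10 passed the filter on low counts that left 13438 protein-coding genes for testing. The cells were E14 mouse embryonic stem cells (mESCs), an established line labelled 129m and wild type, kept for 24 h in serum with LIF on fibronectin-coated StemBond hydrogels. These are polyacrylamide gels with a co-factor, 6-acrylamidohexanoic acid (AHA), that anchors extracellular matrix protein. Substrates were soft, at about 750 Pa, or stiff, at about 160 kPa. On each, AHA was at 16 mM (called low), 48 mM (mid) or 80 mM (high), which made 6 groups of 3 libraries. All groups received LIF, so no group shows these genes without the cytokine. Nothing in the labels says whether the 3 libraries of a group came from separate cultures, so p-values measure the spread between libraries, which may be technical.

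LIF binds LIFR, which then pairs with gp130, the product of Il6st, a chain shared by the interleukin-6 family of cytokines. JAK kinases bound to the receptor phosphorylate STAT3, which enters the nucleus and switches on genes that hold mESCs in self-renewal. SOCS3, itself a STAT3 target, binds gp130 and the JAKs and shuts the signal down. The pathway runs on protein phosphorylation, which RNA counts do not measure.

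The stretches before the start of Lifr and Pim1 are shown because these 2 genes differed between soft and stiff substrates, and that of Socs3 because, of the windows searched, its own held the STAT-type motif described here. The sequences are from RefSeq (GRCm38.p6), whose table held 12 windows of 250 bases for the 10 genes. Lifr and Pim1 had 2 windows each, and the stretch shown is from the one further upstream. Each stretch is printed 5′ to 3′ on the strand of its gene and stops before the first annotated exon base of that window. The Lifr stretch lies at chr15:7129322-7129558 on the plus strand, the Pim1 stretch at chr17:29490535-29490752 on the plus strand and the Socs3 stretch at chr11:117969452-117969616 on the minus strand. Capitals mark the motif TTCNNNGAA, a palindrome that reads alike on both strands.
Lifr: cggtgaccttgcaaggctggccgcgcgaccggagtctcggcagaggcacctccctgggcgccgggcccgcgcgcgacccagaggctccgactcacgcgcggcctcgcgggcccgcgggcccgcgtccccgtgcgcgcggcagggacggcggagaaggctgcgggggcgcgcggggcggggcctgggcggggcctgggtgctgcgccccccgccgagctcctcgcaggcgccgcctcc
Pim1: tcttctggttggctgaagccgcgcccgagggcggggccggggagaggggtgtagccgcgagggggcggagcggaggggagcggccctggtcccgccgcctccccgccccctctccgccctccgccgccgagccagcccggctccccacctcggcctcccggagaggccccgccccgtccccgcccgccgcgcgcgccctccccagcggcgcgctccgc
Socs3: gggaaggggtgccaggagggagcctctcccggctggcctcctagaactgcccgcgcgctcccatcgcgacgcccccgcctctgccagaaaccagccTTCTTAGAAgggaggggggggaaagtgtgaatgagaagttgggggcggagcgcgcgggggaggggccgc
The motif was found in 1 of the 12 windows, in Socs3, where it starts 154 bases before the start that RefSeq gives the gene. Over all 32851 promoter windows of the table, 7.02% held it. A match of letters is a description of the sequence and not evidence of binding. The Lifr and Socs3 stretches lie within the annotated span of their genes, because the GENCODE spans, which include longer transcripts, begin further upstream.

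Libraries held 5850621 to 9290261 gene counts. The spike-in RNAs of the ERCC mix took 0.607 to 0.725% of counts in 17 libraries and 1.37% in replicate 1 of soft, high AHA. That library was left out of the tests, which left 8 soft and 9 stiff libraries, with 2 in the soft, high AHA group. Levels are given as CPM, a gene's counts divided by the library's TMM-scaled total over the tested genes and brought to the usual common scale of that unit. In bulk RNA, fewer cells that express a gene and less RNA per cell cannot be told apart.

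The comparison of soft with stiff substrates asks whether stiffness alters this pathway at the RNA level. Averaged over the 3 AHA concentrations, 2 of the 10 genes differed at an adjusted p under 0.05 (edgeR quasi-likelihood test, Benjamini-Hochberg over 13438 genes): Lifr was higher and Pim1 was lower on soft substrates. In the same comparison 8.59% of all tested genes passed (3.77% higher and 4.82% lower on soft). The median log2 fold change (soft minus stiff) was -0.059 for the 10 genes and 0.0011 for all tested genes, and the median of its absolute size was 0.081 and 0.086. The genes were not matched for level, so these 2 medians do not show whether the 10 genes differed by more or less than others. For mid against low AHA on stiff, where 0 genes passed, the median absolute size was 0.023 for the 10 and 0.092 for all. Of the 10 genes, 4 had an unadjusted p under 0.05 for soft against stiff on average (20.5% of all genes).

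Lifr, the chain that binds LIF, was higher on soft substrates. It is a gene of chromosome 15 (7090614 to 7197489, plus strand, GRCm38). On soft, low AHA its level was 147, 137 and 126 CPM, on soft, mid AHA 139, 142 and 129 CPM, and on soft, high AHA 116 and 124 CPM. On stiff, low AHA it was 117, 120 and 126 CPM, on stiff, mid AHA 118, 122 and 120 CPM, and on stiff, high AHA 111, 112 and 101 CPM. The ranges overlapped, with 6 of the 8 soft libraries above every stiff one, and the overlap came from the soft, high AHA libraries. The mean was 133 ± 10.3 CPM on soft (SD, n = 8) and 116 ± 7.3 CPM on stiff (SD, n = 9). The average difference was a log2 fold change of 0.17 ± 0.040 (SE), a 1.13-fold higher level (95% interval 1.07 to 1.19, edgeR adjusted p = 0.00106). The library left out stood at 128 CPM, and with all 18 libraries the log2 fold change was 0.18 (adjusted p = 0.000165).

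Il6st (chromosome 13, 112464070 to 112510086, plus strand, GRCm38 here and for the genes after it) encodes gp130, the signalling chain. Its level was 105 to 123 CPM on soft (median 113) and 103 to 116 CPM on stiff (median 106). The ranges overlapped, and 4 of the 9 stiff libraries lay below every soft one. The log2 fold change was 0.078 ± 0.041 (SE), with a 95% interval for the fold of 0.998 to 1.12 (edgeR adjusted p = 0.27), so the interval reached from no difference to a 1.12-fold higher level on soft.

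**Figure D1:**
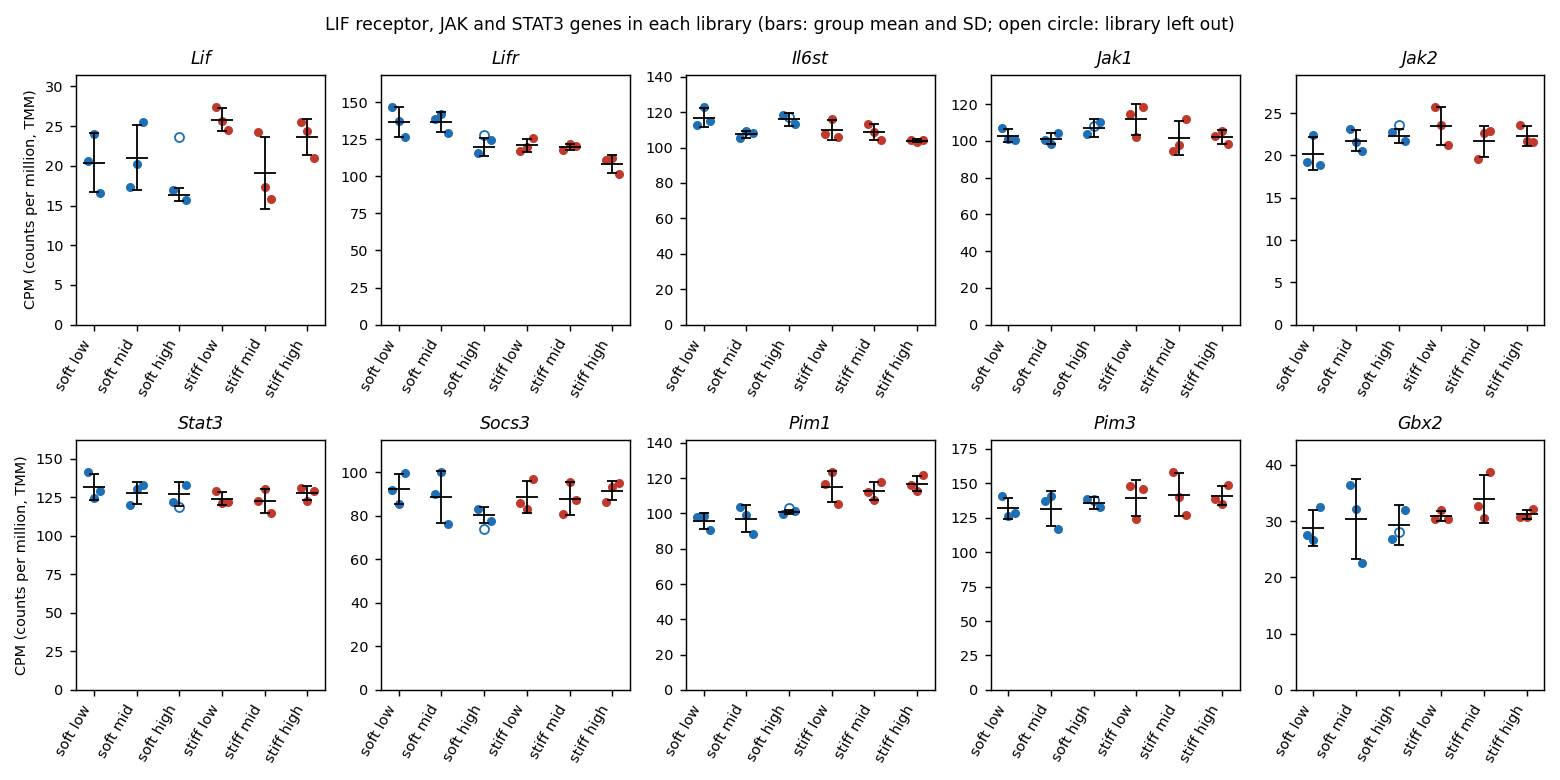
Level of each of the 10 genes in CPM (y axis, from 0) by substrate group (x axis; soft in blue, stiff in red), where filled points are libraries used in the tests, the open circle is the library left out, and the black bars are the group mean and SD. Pim1 lies at 88.6 to 104 CPM in the soft libraries and 106 to 123 CPM in the stiff ones, while the other genes overlap between the 2 substrates.

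Lif itself (chromosome 11, 4257557 to 4272514, plus strand) was expressed by the cells at a low level, between 78 and 166 counts per library. On soft, low AHA it stood at 20.7, 24.0 and 16.5 CPM, on soft, mid AHA at 17.4, 20.2 and 25.5 CPM, and on soft, high AHA at 16.9 and 15.8 CPM. On stiff, low AHA it stood at 27.4, 25.6 and 24.5 CPM, on stiff, mid AHA at 24.3, 17.3 and 15.8 CPM, and on stiff, high AHA at 25.5, 24.3 and 21 CPM. At low and high AHA each stiff library lay above each soft library tested, and at mid AHA the groups overlapped. Such an order, with soft below stiff, was seen for 9.60% of all tested genes at low AHA and 12.4% at high AHA. The average log2 fold change was -0.24 ± 0.094 (SE, edgeR adjusted p = 0.0948), which did not pass. It passed without 1 mid AHA library, at -0.30 (adjusted p = 0.0365) without soft replicate 3 and at -0.28 (adjusted p = 0.0489) without stiff replicate 3, and was smaller without stiff replicate 1 of mid AHA (-0.17, adjusted p = 0.321). The left-out library held 23.6 CPM, above both other soft, high AHA libraries. With all 18 libraries the average was -0.17 (adjusted p = 0.246), and with soft, high AHA replicate 2 or 3 left out in place of replicate 1 it was -0.15 (adjusted p = 0.366) or -0.14 (adjusted p = 0.404). With all 18 libraries the log2 fold change at high AHA went from -0.53 (adjusted p = 0.148) to -0.33 (adjusted p = 0.334).

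The kinases did not differ at the threshold. Jak1 (chromosome 4, 101152367 to 101265282, minus strand), which works with gp130 and LIFR, was at 98.4 to 110 CPM on soft (median 102) and 94.3 to 118 CPM on stiff (median 103). Its average log2 fold change was -0.021 ± 0.043 (SE), with a fold interval of 0.929 to 1.05 (edgeR adjusted p = 0.851). Jak2 (chromosome 19, 29251828 to 29313080, plus strand), also able to bind these receptors, was at 18.9 to 23.1 CPM on soft (median 21.7) and 19.6 to 25.7 CPM on stiff (median 22.6). Both kinases thus overlapped widely between substrates. For Jak2 the log2 fold change was -0.075 ± 0.087 (SE), with a wider fold interval of 0.842 to 1.07 (adjusted p = 0.701), at 87 to 154 counts per library.

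Stat3 RNA (chromosome 11, 100885098 to 100939540, minus strand) was close to even over the 6 groups. Levels were 120 to 141 CPM on soft (median 130) and 115 to 131 CPM on stiff (median 123). The group means ran from 123 CPM on stiff, mid AHA to 132 CPM on soft, low AHA, a ratio of 1.07, and no neighbouring groups in that order differed by over 1 SD. The average log2 fold change was 0.044 ± 0.039 (SE), with a fold interval of 0.977 to 1.09 (edgeR adjusted p = 0.596).

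Socs3, the feedback inhibitor (chromosome 11, 117966079 to 117970047, minus strand), was at 76.1 to 99.8 CPM on soft (median 87.6) and 80.8 to 96.7 CPM on stiff (median 87.2). The soft libraries spread on both sides of the stiff range, and the average log2 fold change was -0.042 ± 0.048 (SE, edgeR adjusted p = 0.695). The lowest group mean was soft, high AHA, where the tested libraries held 82.9 and 77.6 CPM against 86.4, 93.0 and 95.1 CPM on stiff, high AHA. The soft libraries lay below the stiff ones here, as they did for 12.4% of all tested genes at high AHA, and the log2 fold change was -0.18 ± 0.089 (SE, adjusted p = 0.443). With all 18 libraries it was -0.22 (adjusted p = 0.136), also short of the threshold.

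Pim1, a serine/threonine kinase gene known as a STAT3 target that favours survival and self-renewal, was lower on soft substrates. It lies on chromosome 17 (29490753 to 29496112, plus strand, GRCm38). On soft, low AHA its level was 97.9, 98.6 and 90.8 CPM, on soft, mid AHA 104, 98.9 and 88.6 CPM, and on soft, high AHA 99.8 and 101 CPM. On stiff, low AHA it was 117, 123 and 106 CPM, on stiff, mid AHA 112, 108 and 118 CPM, and on stiff, high AHA 116, 113 and 122 CPM. Every soft library thus lay below every stiff one, and the left-out library, at 103 CPM, did too. Soft libraries lay below all stiff ones for 0.871% of tested genes and above them for 0.394%, which makes 1.27% in either direction. The mean was 97.5 ± 5.18 CPM on soft (SD, n = 8) and 115 ± 5.91 CPM on stiff (SD, n = 9). The average log2 fold change was -0.23 ± 0.043 (SE), a fold of 0.852 (95% interval 0.804 to 0.903, edgeR adjusted p = 1.56e-05). With all 18 libraries it was -0.23 (adjusted p = 8.48e-06). Of the Pim1 exon bases, 14.5% also lie under the opposite-strand gene Gm26885, which held 1 to 11 counts per library, 0.989% of those of Pim1, and whether counting used strand is not given in the sources used here.

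Pim3, a kinase of the same family (chromosome 15, 88862186 to 88865726, plus strand), was at 117 to 141 CPM on soft (median 135) and 124 to 158 CPM on stiff (median 140). The ranges overlapped and 4 stiff libraries lay above every soft one. The log2 fold change was -0.083 ± 0.041 (SE), with an unadjusted p of 0.0436 and an adjusted p of 0.225 (edgeR).

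Gbx2 (chromosome 1, 89927956 to 89931179, minus strand) encodes a homeodomain transcription factor that acts downstream of STAT3 in mESCs. It was at 22.5 to 36.4 CPM on soft (median 29.7) and 30.4 to 38.7 CPM on stiff (median 30.8). The soft libraries were more spread, with 4 of 8 below every stiff library and the others within the stiff range. The log2 fold change was -0.12 ± 0.078 (SE, edgeR adjusted p = 0.431), and -0.058 (adjusted p = 0.762) without soft, mid AHA replicate 3. Of its exon bases, 43.5% lie under D130058E05Rik on the opposite strand, whose counts came to 6.76% of those of Gbx2, under the same limit on strand.

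**Figure D2:**
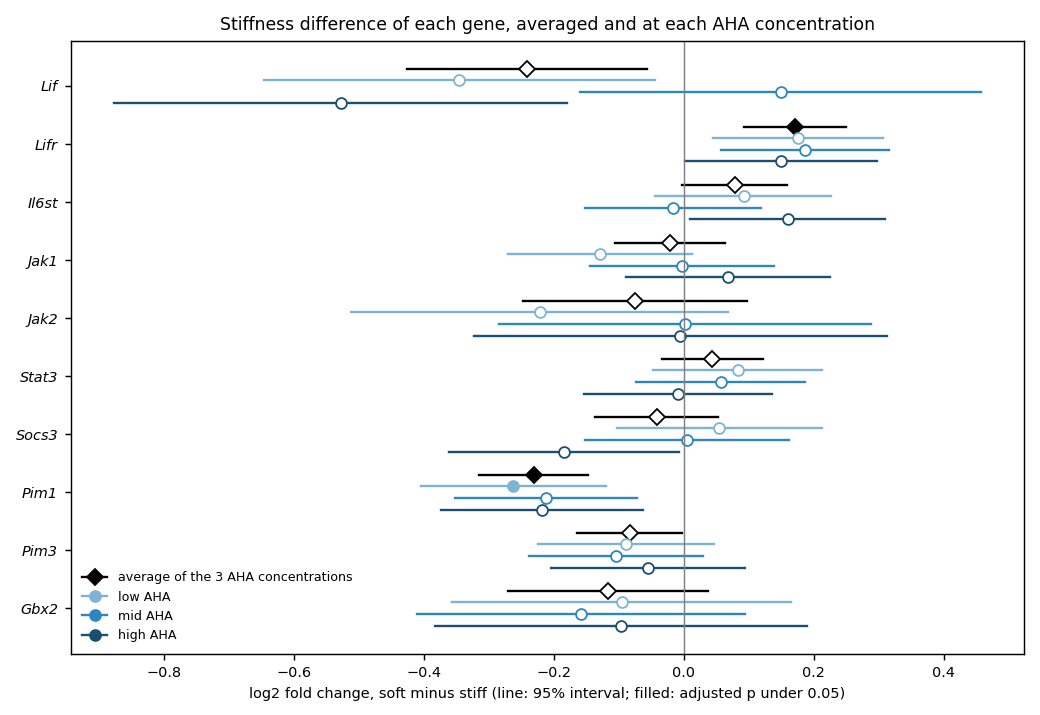
Log2 fold change, soft minus stiff (x axis), of each of the 10 genes (y axis), as the average over AHA (black diamonds) and at each AHA concentration (blue circles), with 95% intervals as lines and filled symbols for an adjusted p under 0.05. Filled symbols are the averages of Lifr (0.17) and Pim1 (-0.23) and Pim1 at low AHA (-0.26).

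At single AHA concentrations, Pim1 at low AHA was the 1 gene of the 10 that passed, where 3.04% of all tested genes did. At low AHA 3 of the 10 had an unadjusted p under 0.05 (13.1% of all genes). The log2 fold change of Pim1 there was -0.26 ± 0.072 (SE, edgeR adjusted p = 0.0162). This call was lost without soft, low AHA replicate 3 (adjusted p = 0.148), stiff, low AHA replicate 1 (0.0999) or stiff, low AHA replicate 2 (0.144). At mid AHA Pim1 stood at -0.21 (adjusted p = 0.0850) and at high AHA at -0.22 (adjusted p = 0.196), so its estimate stayed between -0.26 and -0.21. Lifr stood at 0.17, 0.19 and 0.15 from low to high AHA, with adjusted p of 0.157, 0.109 and 0.472. The value at high AHA was 0.098 without soft, high AHA replicate 3 and 0.23 with replicate 2 left out in place of replicate 1. None of the 10 genes passed in edgeR or in DESeq2 at mid AHA, where 2.86% of all genes did and 2 of the 10 had an unadjusted p under 0.05 (13.6% of all genes). None passed in either tool at high AHA, where 0.841% of all genes did and 5 of the 10 had an unadjusted p under 0.05 (10.5% of all genes), but DESeq2 gave 3 of them, Lif included, no adjusted p there.

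Raising AHA at 1 stiffness tests the strength of matrix tethering, and none of the 10 genes passed in any of these comparisons in edgeR. None passed in DESeq2 either, which on soft gave no adjusted p to 3 of the 10 for high against low AHA and to 4 for high against mid AHA. Few genes did at all: 0.253% for high against low AHA on soft, 0.0670% for high against mid AHA on soft, 0.00744% for each of high against low and high against mid on stiff, and 0 genes for mid against low on either substrate in both tools (820 genes on soft and 671 on stiff had an unadjusted p under 0.05 in edgeR). Among the 10, 2 had an unadjusted p under 0.05 for high against low AHA on soft and 1 on stiff, 2 for high against mid AHA on each substrate, and 0 for mid against low on soft and 2 on stiff. Of all genes, 4.99 to 8.51% had one in these 6 comparisons. Lifr was the member with the lowest adjusted p when high was set against low AHA over both stiffnesses. Its log2 fold change was -0.18 ± 0.050 (SE, unadjusted p = 0.000512, edgeR adjusted p = 0.138), in a comparison where 0.112% of genes passed, and DESeq2 gave no adjusted p there to any of the 10. The group means of Lifr show this as 137 ± 10.2, 137 ± 6.46 and 120 ± 6.12 CPM on soft and 121 ± 4.51, 120 ± 2.19 and 108 ± 5.96 CPM on stiff, from low to high AHA (SD, n = 3, but n = 2 for soft, high AHA). The high AHA groups were thus the lowest on each substrate, by an amount that did not pass the adjustment.

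The interaction test asks whether the soft minus stiff difference itself depends on AHA. None of the 10 genes passed in edgeR or DESeq2, where 0.0298% of all genes did in edgeR, and 1 of the 10 had an unadjusted p under 0.05 (6.71% of all genes). That gene was Lif (unadjusted p = 0.0109, adjusted p = 0.619), with log2 fold changes of -0.35, 0.15 and -0.53 at low, mid and high AHA. The low AHA value was -0.21 without soft, low AHA replicate 3, the mid AHA value was -0.016 without soft, mid AHA replicate 3, and the high AHA value was -0.25 or -0.23 with soft, high AHA replicate 2 or 3 left out in place of replicate 1. For Lifr the adjusted p was 0.992 and for Pim1 0.990.

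Levels can be compared between genes per kb of exon, over the 17 libraries. Pim3 was the highest at 56.4 ± 4.24 CPM per kb (SD, n = 17). Pim1 (31.7 ± 3.11) and Socs3 (30.7 ± 2.53) followed and did not differ beyond their spread. Jak1 (14.4 ± 0.893), Gbx2 (14.2 ± 1.7) and Stat3 (13.3 ± 0.671) came next, each within the spread of its neighbour. The receptor chains Lifr (11.5 ± 1.11) and Il6st (9.92 ± 0.516) lay below them. Lif (4.9 ± 0.931) and Jak2 (4.36 ± 0.347) were the lowest and did not differ beyond their spread. The known STAT3 targets Pim3, Pim1 and Socs3 were thus the most abundant of the 10 RNAs per length. The length is that of all annotated exons of a gene, whether or not these cells use them, and the order depends on it. Without it the means were 137 CPM for Pim3, 127 for Stat3, 124 for Lifr, 110 for Il6st, 107 for Pim1, 104 for Jak1 and 88.6 for Socs3.

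Because LIFR and gp130 act as a pair, and the PIM kinases are close relatives, the ratio of each pair was compared within libraries, a test chosen after the fold changes were seen. The ratio of Lifr to Il6st per exon length was 1.21 on soft (geometric mean, range 1.00 to 1.36, n = 8) and 1.11 on stiff (1.00 to 1.23, n = 9). The log2 difference of 0.114 did not pass a two-sided exact permutation test (p = 0.0784), so a rise of Lifr beyond that of Il6st was not shown. It passed without soft, high AHA replicate 2 (0.152, exact permutation p = 0.0142) and without stiff, low AHA replicate 3 (0.132, exact permutation p = 0.0499). The ratio of Pim1 to Pim3 was 0.531 on soft (range 0.503 to 0.563) and 0.591 on stiff (0.512 to 0.716), so the ranges overlapped. The log2 difference was -0.155 (two-sided exact permutation p = 0.0144). Since the pair was chosen with both fold changes known, this value describes the same difference and is no independent support for it.

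**Figure D3:**
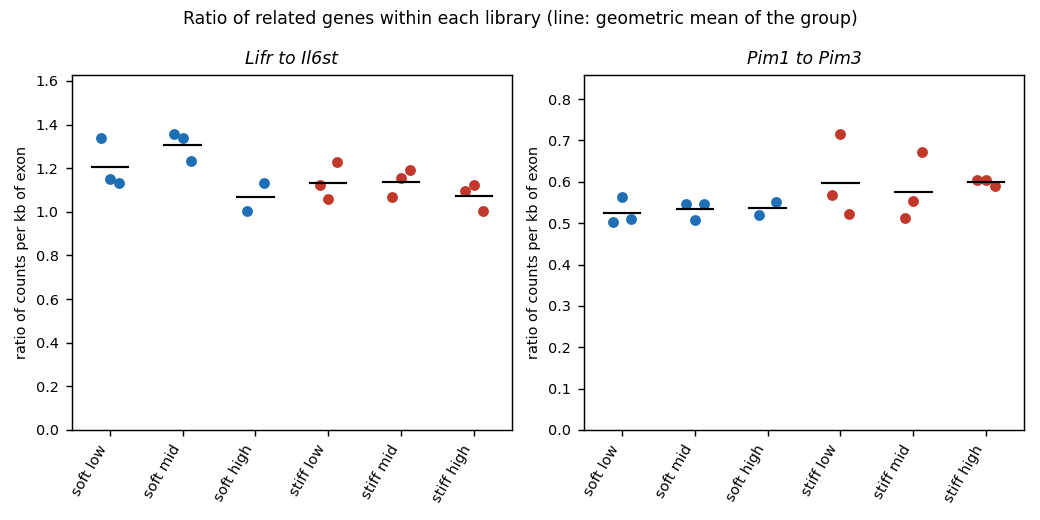
Ratio of Lifr to Il6st (left) and of Pim1 to Pim3 (right) in counts per kb of exon (y axis, from 0) by group (x axis; soft in blue, stiff in red), with 1 point for each of the 17 libraries and a line at the geometric mean. The Lifr to Il6st ratio is above 1.23 in 4 soft libraries, and Pim1 to Pim3 does not exceed 0.563 on soft but reaches 0.716 on stiff.

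The genes most like the 2 called members were sought among 9225 genes with a mean of at least 10 CPM, by Pearson's r of log2 CPM over the 17 libraries. For Pim1 they were Iffo2 (r = 0.911), Synpo2l (0.909) and Ddah1 (0.900). For Lifr they were Ticrr (0.900), Helz (0.895) and Epha4 (0.893). The 17 libraries comprise 8 soft and 9 stiff ones, so genes that differ between substrates correlate through that split, and these values describe likeness only.

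Around these 10 genes, 53 others of the LIF and gp130 pathway were examined by role. The ligand genes Il6, Osm, Cntf and Il27 did not pass the filter on low counts, which left 49. Of these, 9 differed between soft and stiff substrates on average (18.4%, against 8.59% of all genes), 5 higher and 4 lower on soft, with a median log2 fold change of 0.0034 (0.0011 for all genes). The calls thus lay in both directions. The list was chosen with earlier results of these data known, so neither its share nor the split by role tests the pathway. At low AHA 7 of the 49 passed (3.04% of all genes), at mid AHA 5 (2.86%) and at high AHA 3 (0.841%). None passed for AHA or the interaction in edgeR, where 1 to 7 of the 49 had an unadjusted p under 0.05 (4.99 to 8.64% of all genes). None passed there in DESeq2 either, which gave no adjusted p to 29, 37 and 44 of the 49 for high AHA on soft set against low and against mid AHA, and for high set against low AHA over both substrates.

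Genes known to respond to STAT3 held 6 of the 9 calls, from 14 tested. The naive pluripotency factors Tfcp2l1 and Klf4 were higher on soft. Tfcp2l1 rose from 178 ± 10.3 to 214 ± 10.2 CPM (log2 fold change 0.27, adjusted p = 3.96e-11), and Klf4 from 107 ± 6.58 to 129 ± 6.68 CPM (0.26, adjusted p = 2.41e-07; SD, n = 9 stiff and 8 soft, edgeR as throughout). The immediate early gene Fos was higher at 12.9 ± 0.742 CPM on soft against 7.41 ± 3.28 CPM on stiff (0.81, adjusted p = 1.98e-06). The other 3 calls were lower on soft, like Pim1. Ccnd1, which encodes the G1 cyclin D1, fell from 135 ± 5.65 to 112 ± 8.68 CPM (-0.28, adjusted p = 1.16e-08). Myc, the growth-promoting transcription factor gene, fell from 125 ± 7.31 to 107 ± 6.24 CPM (-0.22, adjusted p = 1.70e-05). Bcl2l1, an inhibitor of apoptosis, fell from 119 ± 6.37 to 103 ± 7.2 CPM (-0.20, adjusted p = 0.000121). These averages were not equally even over AHA. From low to high AHA, Tfcp2l1 stood at 0.26, 0.25 and 0.28, Klf4 at 0.27, 0.26 and 0.25, and Fos at 0.95, 0.46 and 1.03. Ccnd1 stood at -0.13, -0.34 and -0.37, Myc at -0.27, -0.27 and -0.13, and Bcl2l1 at -0.40, -0.12 and -0.091. Several of these genes are known to answer to other signals too, so the list is not a measure of STAT3 activity.

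The other 3 calls lay elsewhere in the pathway. Cntfr, the non-signalling chain that joins LIFR and gp130 in the receptor for ciliary neurotrophic factor, was lower on soft at 21 ± 4 CPM against 28.1 ± 3.22 CPM (-0.39, edgeR adjusted p = 0.000469). Jak3, a kinase of the receptors that use the common gamma chain, was higher on soft at 50.0 ± 4.22 against 39.0 ± 2.97 CPM (0.36, adjusted p = 6.29e-06). Pias3, an inhibitor of STAT3, was higher at 25.5 ± 2.36 against 20.3 ± 2.41 CPM (0.33, adjusted p = 0.00527). It was the 1 call among 14 inhibitors tested (7.14%, against 8.59% of all genes). From low to high AHA, Cntfr stood at -0.40, -0.62 and -0.16, Jak3 at 0.55, 0.32 and 0.21, and Pias3 at 0.29, 0.23 and 0.46. None of the 5 adaptors and SRC family kinases passed in edgeR, and 3 of them had an unadjusted p under 0.05 (20.5% of all genes).

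**Figure D4:**
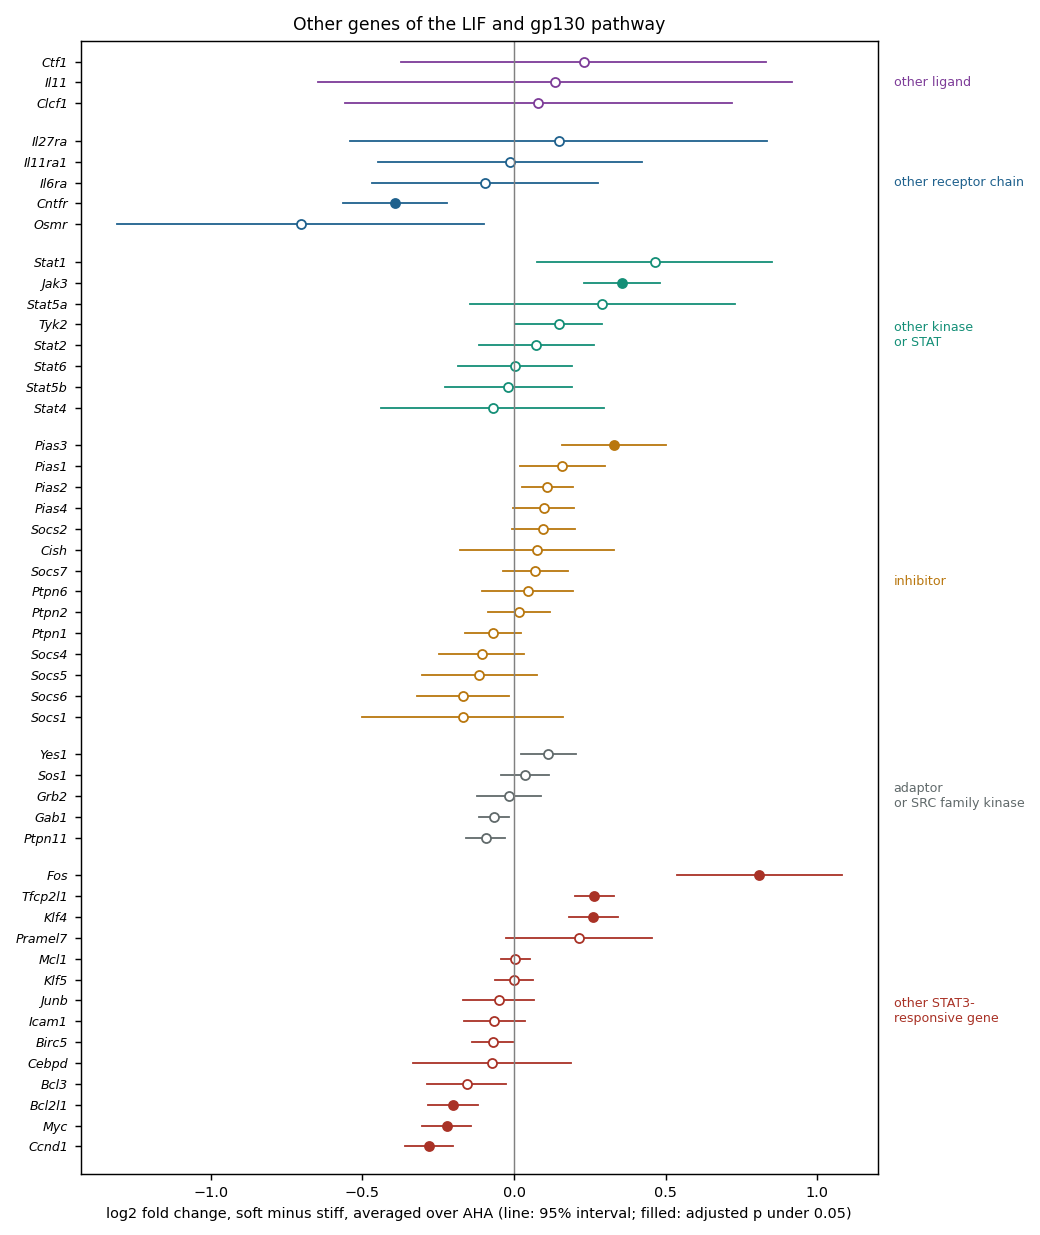
Average log2 fold change, soft minus stiff (x axis), of the 49 tested genes of the LIF and gp130 pathway outside the 10 described here (y axis, grouped and coloured by role), with 95% intervals as lines and filled points for an adjusted p under 0.05. Of the 9 filled points 6 are STAT3-responsive genes, from Fos at 0.81 to Ccnd1 at -0.28.

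The cells carried the markers of their labelled type. The summed level of 7 embryonic stem cell markers (Pou5f1, Sox2, Nanog, Zfp42, Esrrb, Utf1 and Dppa5a) was 1840 to 2020 CPM on soft and 1690 to 1820 CPM on stiff, without overlap. Markers of primitive endoderm summed to 36.8 to 51.2 CPM on soft and 37.3 to 49.3 CPM on stiff, and those of trophoblast to 151 to 183 and 152 to 178 CPM. Markers of the primitive streak summed to 17.6 to 27.6 and 15.3 to 31.1 CPM, and neural markers to 104 to 115 and 86.3 to 109 CPM. Fibroblast markers summed to 114 to 197 CPM on soft and 166 to 237 CPM on stiff, mostly from Col1a1 (mean 133 CPM), while Lum was at 0.0655 and Postn at 1.21 CPM. No listed marker was at 0 in every library, and Elf5, Lum, Mesp1 and Neurog2 had a mean under 1 CPM. Of these sums, that of the stem cell markers was higher on soft without overlap, while the fibroblast and neural sums overlapped between substrates, with the upper and lower ends of the fibroblast range higher on stiff and those of the neural range higher on soft. Their part in the results was not tested.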

How the data were processed

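The authors sequenced total RNA of 18 samples with a pico-input kit for mammalian RNA. Per the labels and the study's methods, reads were trimmed (Trim Galore 0.4.4), aligned to GRCm38/mm10 (GSNAP) and assigned by HTSeq to the genes of Ensembl 81. What the authors deposited were raw counts, not normalised, of 5850621 to 9290261 per library. HTSeq summary lines (61.5 to 64.0% of a column), 92 ERCC and 7 SIRV spike-ins stayed out of library sizes and tests. Symbols and coordinates came from GENCODE M21.

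Groups followed the labels. Protein-coding genes passing filterByExpr (minimum count 10) were fitted with edgeR 4.0.16 (TMM, robust quasi-likelihood, 1 coefficient per group, 17 libraries; biological coefficient of variation 5.35%), a procedure tested on simulated data. The differences tested were soft minus stiff (per AHA concentration and averaged), AHA steps at each stiffness, high minus low AHA averaged, and the interaction (an F test). Soft, high AHA replicate 1 was left out for its ERCC share, the measure by which the study set aside outliers. Ratios used exact permutation tests (scipy 1.17.1). The text names all 10 genes, the pathway genes called on average, listed ligands and receptor chains below the filter, and the 3 genes most like each called member. 1 gene of the pathway list is not reported here, and the counts over that list leave it out. The members and lists were chosen with earlier results of these data known. Alternatives were RLE factors, DESeq2 1.42.0, no filter, all genes, all 18 libraries, only the compared groups, no robust estimation and leaving out each library. Leaving out soft, high AHA replicate 2 or 3 instead, and the ratios, were chosen after seeing the data.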

Additional observations from a re-analysis of the deposited data

Results flagged for a closer look

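Gbx2 in stiff, mid AHA replicate 3 stood at 38.7 CPM, apart from the other 8 stiff libraries, which lay between 30.4 and 32.6 CPM. The gap to its nearest neighbour was over the 95% limit of Dixon's test for 9 samples. It was the 1 library so marked in 20 sets of libraries examined (each of the 10 genes on soft and on stiff), and chance marks about 1 set in 20.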

How the results depend on the processing

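Lifr and Pim1 kept their average calls under each of the 8 alternatives run for the average, in which all groups enter, and without each of the 17 libraries. When 1 library was left out, Lifr ranged from 0.153 to 0.192 (adjusted p from 0.0003 to 0.0123) and Pim1 from -0.247 to -0.21 (adjusted p from 8.72e-06 to 0.000184). The number of the 10 genes called on average then ranged from 2 to 3, the third being Lif, and the number at low AHA from 0 to 1. The pathway list held 9 to 11 calls without 1 library and 9 to 14 under the other alternatives, with 14 when soft, high AHA replicate 3 was left out in place of replicate 1. Of 39 fold changes and ratios, 35 kept their direction throughout. The other 4, none of them called, changed sign when 1 library was left out: Jak1 on average from -0.039 to 0.00348, Lif at mid AHA from -0.016 to 0.347, Socs3 at low AHA from -0.00242 to 0.128 and Socs3 at mid AHA from -0.0868 to 0.102. Other averages that were not called and moved by over 1.5 times without 1 library were those of Jak2 (-0.0485 without stiff, low AHA replicate 1), Stat3 (0.0232 without soft, high AHA replicate 3), Socs3 (-0.00929 without soft, mid AHA replicate 3), Pim3 (-0.0535 without stiff, mid AHA replicate 1) and Gbx2 (-0.0576 without soft, mid AHA replicate 3). The log2 difference of the Lifr to Il6st ratio ranged from 0.0895 to 0.152 and that of Pim1 to Pim3 from -0.18 to -0.12 (exact permutation p from 0.00373 to 0.0278). No paired analysis was possible because the labels give no replicate number shared between groups. The replicate numbers used here follow the order of the libraries within a group.

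CPM taken over all gene counts without TMM, a larger total by construction, lowered every mean level: Lif to 14.9, Lifr to 86.8, Il6st to 77.1, Jak1 to 73.0, Jak2 to 15.4, Stat3 to 88.9, Socs3 to 62.1, Pim1 to 74.8, Pim3 to 95.9 and Gbx2 to 21.6. At high AHA the number of all genes called soft against stiff was 113, but 341 with all 18 libraries, and 384 or 257 with soft, high AHA replicate 2 or 3 left out instead of replicate 1. None of the 10 genes was called at high AHA in any of these. Leaving out 1 library lowered the soft against stiff counts over all genes from 113 to 42 at high AHA (without soft replicate 3; 51 without stiff replicate 3), from 408 to 245 at low AHA (without soft replicate 1) and from 384 to 222 at mid AHA (without soft replicate 2; 254 without stiff replicate 1). Counts over all genes for the AHA comparisons were small and moved too: under the alternatives (leaving out 1 library aside), high against low AHA over both substrates went from 15 up to 46 (DESeq2), high against low AHA on stiff from 1 to between 0 and 11, high against mid AHA from 9 to between 5 and 16 on soft and from 1 up to 10 on stiff, mid against low AHA on soft from 0 up to 8, and the interaction from 4 to between 2 and 12. Leaving out 1 library moved high against low AHA over both substrates to between 5 (without soft, high AHA replicate 2) and 65 (without soft, high AHA replicate 3). On soft the same 2 libraries moved it from 34 to 2 and to 69, and on stiff it went to between 0 and 15 (without stiff, high AHA replicate 1). None of the 10 genes was called in any of these either. Lif, Jak2 and Gbx2 had the fewest counts of the 10 genes, 78 to 230 per library.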
